A study of Mus musculus with 12 samples.

Results

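The genes described here set the pace of the G1 phase of the cell cycle. They were the Cip/Kip inhibitors Cdkn1a and Cdkn1b, the INK4 inhibitors Cdkn2a, Cdkn2b, Cdkn2c and Cdkn2d, the D-type cyclins Ccnd2 and Ccnd3, and the cyclin-dependent kinases Cdk4 and Cdk6. They were chosen by name, and every probe set that the array annotation pairs with only 1 of these symbols was taken, which gave 24 of 45037 probe sets and 10 of 18193 genes. No filter on low values was applied, so all 10 genes and all 24 probe sets were tested.

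Whole-genome Affymetrix mouse arrays measured RNA of spleen T cells from female C57BL/6 mice aged 8 to 12 weeks. The 12 arrays fell into 4 groups: 5 of CD8+ NKT-like cells, 3 of cultured CD4+ T cells, 2 of activated CD8+ T cells and 2 of naive CD8+ T cells. CD8+ NKT-like cells were CD8+ T cells kept in long-term culture with beads carrying anti-CD3 and anti-CD28 and a high dose of IL-2, and the cultured CD4+ T cells went through that same culture. Activated CD8+ cells had been stimulated by soluble anti-CD3 and anti-CD28 at a low dose, whereas naive CD8+ cells were analysed fresh. CD8+ cells were enriched by magnetic negative selection, and CD4+ cells were sorted by flow cytometry. The group name NKT-like is that of the study. Because naive CD4+ cells were not analysed here, lineage and culture cannot be told apart in the comparison of cultured CD4+ with naive CD8+ cells.

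Values are log2 signals, on which 1 unit is a doubling, and a level is compared only with other levels of the same probe set. The array medians lay between 6.23 and 6.42, and the number of arrays limits the precision. Cd8a averaged 10.91 in NKT-like, 10.30 in activated and 11.39 in naive CD8+ cells and 6.73 in cultured CD4+ cells, and Cd4 averaged 10.004 in cultured CD4+ cells and at most 7.14 in the other groups. The mean level of 7 B cell markers, as log2 of their mean signal, was 11.09 to 11.53 in the naive arrays, and 6.34 to 7.43 in NKT-like, 6.48 to 6.99 in cultured CD4+ and 7.83 to 8.39 in activated cells. That of 7 red cell precursor markers was 9.69 to 10.22 in the naive arrays, against 6.46 to 6.92 in all the others. Not every marker was high in naive cells. Ighm (13.12) and Jchain (12.92) carried the B cell mean there, while Cd79a (6.55) and Pax5 (6.42) lay near the array medians. Car1 (11.59) and Klf1 (11.09) carried the red cell mean, while Hba-a1 (5.45) and Alas2 (5.47) lay below every array median. The part of these other cells in the differences from naive cells was not tested. The mean level of the 4 measured NK cell markers, of 5 listed, ranged from 8.63 to 11.01 in NKT-like cells. It was 6.18 to 6.31 in cultured CD4+, 7.29 to 7.65 in activated and 9.53 to 9.59 in naive cells. Klrd1 carried the naive mean, averaging 11.40 there and 11.38 in NKT-like cells. The averages of Klrk1 were 10.17 for NKT-like and 7.58 for naive cells, and those of Cd244a were 7.67 and 5.52. Ncr1, a defining NK receptor, lay near the array median in every group (5.99 to 6.26 on average). In bulk samples, fewer cells of a type and less RNA per cell cannot be told apart.

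D-type cyclins bind Cdk4 or Cdk6, and the active pairs phosphorylate the retinoblastoma protein, which frees E2F factors to switch on genes for DNA synthesis. INK4 proteins bind Cdk4 and Cdk6 and keep them from their cyclins, while Cip/Kip proteins act mainly on the later kinase complexes of Cdk2. In T cells, antigen receptor signals and IL-2 raise D-type cyclins and lower p27, the product of Cdkn1b, and Cdkn1a and the neighbouring Cdkn2a and Cdkn2b genes are widely used as signs of cell cycle arrest and senescence.

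Among the 10 genes, 6 were higher and 1 was lower in NKT-like than in naive CD8+ cells. A gene was called at q of at most 0.01, where q is the false discovery rate from limma's moderated test over all probe sets, taken at the brightest probe set of the gene (for Cdk4 the brightest other than 1422441_x_at, whose suffix marks probes that may match other genes). For comparison, 17.6% of all 18193 genes were called in that comparison, 11% as higher and 6.61% as lower. The median log2 difference of the 10 genes was 1.40, and that of all genes was -0.05. In cultured CD4+ against naive CD8+ cells the same numbers, 6 higher and 1 lower, were called (17.1% of all genes, 11.6% higher and 5.58% lower), with a median of 1.56. In activated against naive CD8+ cells 3 were higher and 1 was lower (7.03% of all genes, 4.35% higher and 2.68% lower), with a median of 0.14. Cdkn1a, Cdk4 and Cdk6 were higher and Cdkn1b was lower in all 3 of these comparisons, which share the 2 naive arrays.

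**Figure D1:**
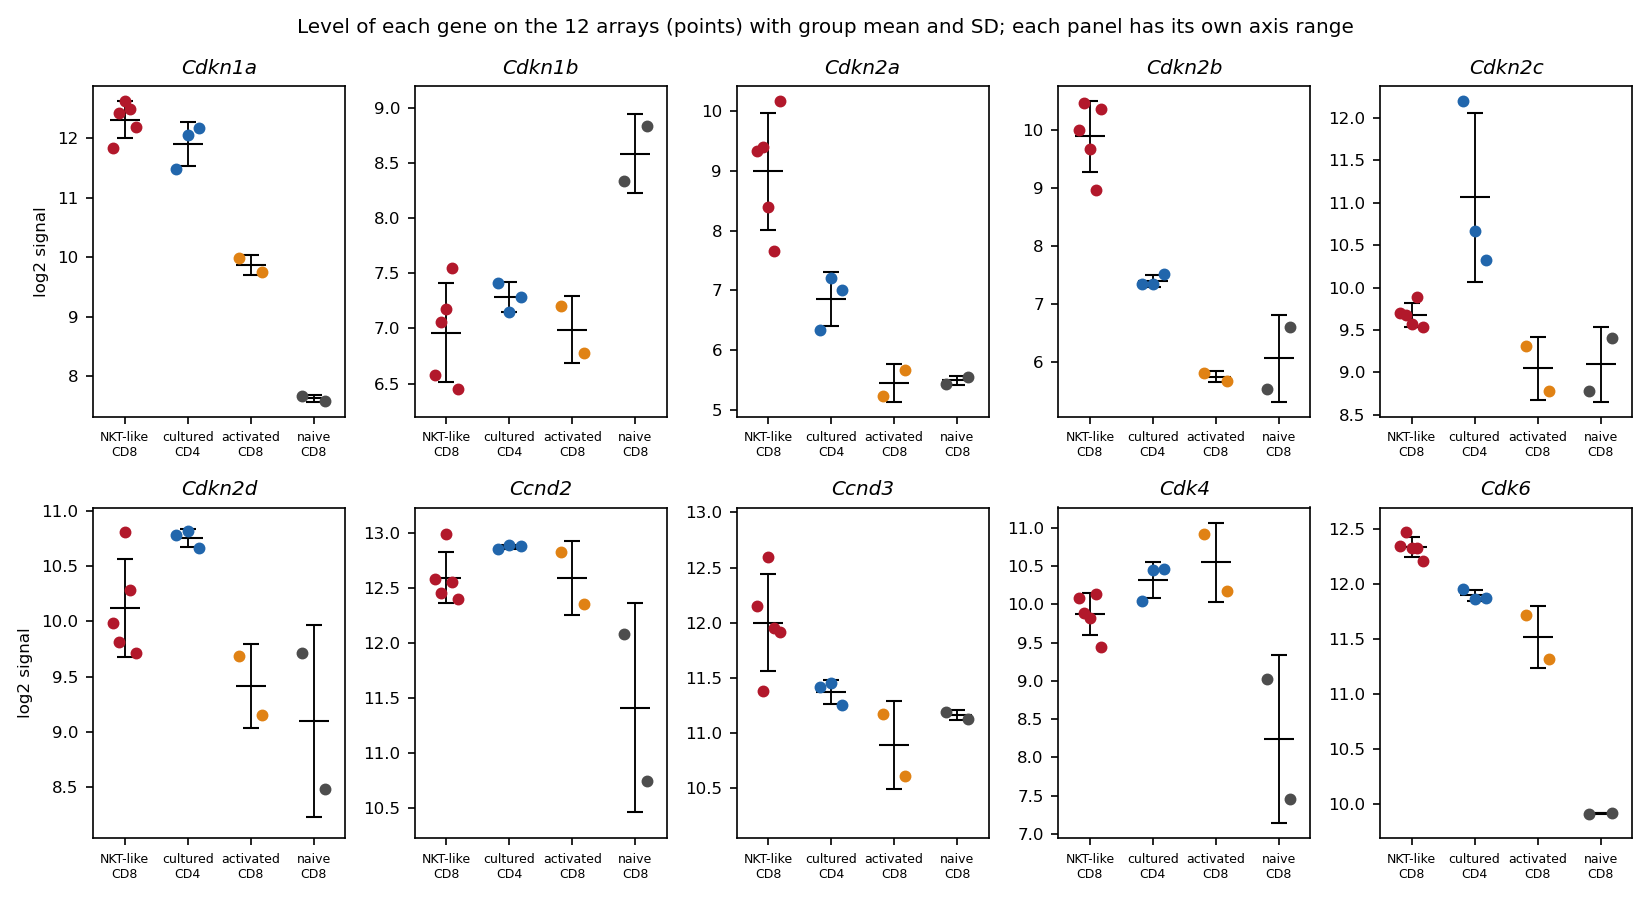
Level of each of the 10 genes (log2 signal of its brightest probe set, vertical axis) on each array, by group, with the group mean and SD as bars. For Cdk4 the probe set shown is the brightest other than 1422441_x_at. The vertical range differs between panels. Cdkn2a and Cdkn2b are highest in the 5 NKT-like arrays, Cdk6 steps down from NKT-like to naive cells, and the naive replicates stand apart from each other for Cdk4 (9.02 and 7.46) and Ccnd2 (12.08 and 10.75).

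Cdkn1a, which encodes the Cip/Kip inhibitor p21 and is a direct target of p53, was highest in both long-term cultures, lower in activated cells and lowest in naive cells. Its log2 signal was 11.83, 12.42, 12.63, 12.50 and 12.19 in the NKT-like arrays, 11.48, 12.05 and 12.17 in the cultured CD4+ arrays, 9.98 and 9.75 in the activated arrays, and 7.67 and 7.59 in the naive arrays. All 8 arrays of the long-term cultures lay above both activated arrays, which lay above both naive ones, whereas the cultures overlapped with each other. The difference from naive cells was 4.68 ± 0.22 (SE; q = 1.41e-07) in NKT-like cells, 4.27 ± 0.24 (q = 6.61e-07) in cultured CD4+ cells and 2.24 ± 0.27 (q = 0.000407) in activated cells. Among all 18193 genes, the NKT-like difference ranked 35 by size.

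Against activated cells, Cdkn1a was 5.45-fold higher in NKT-like cells (q = 7.24e-05) and 4.09-fold higher in cultured CD4+ cells (q = 0.000848). It did not pass between NKT-like and cultured CD4+ cells, with a log2 difference of 0.41 and a 95% interval of -0.01 to 0.84 (q = 0.307). A dimmer probe set, 1421679_a_at, was also higher in both cultures than in naive cells, by 2.72 ± 0.37 (SE; q = 0.000233) in NKT-like and 1.85 ± 0.40 (q = 0.0035) in cultured CD4+ cells. There the activated cells differed from naive cells by 0.61 ± 0.44 (q = 0.284), so the call in activated cells rested on 1 of the 2 probe sets. Without activated replicate 2, the difference between cultured CD4+ and activated cells no longer passed (q = 0.0164), nor did it in a fit of those groups alone (0.0126) or with array weights (0.0154). The call in activated against naive cells was lost with array weights (q = 0.0105).

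RefSeq promoter windows, from 250 bases before to 50 bases after an annotated start (build GRCm38.p6), were found for 9 of the 10 genes and came to 13 windows. They were searched on both strands for CATGNNNNNNCATG, one form of the paired cores of a p53 element. This string was in 1 of the 13 windows, that of the upstream start of Cdkn1a, and in 0.71% of all 32851 windows in the table. The window, chr17:29090729-29091028 on the plus strand, is shown because Cdkn1a is set beside other p53 target genes below, with the matching letters in capitals, beginning 48 bases before the start.
Cdkn1a, upstream start: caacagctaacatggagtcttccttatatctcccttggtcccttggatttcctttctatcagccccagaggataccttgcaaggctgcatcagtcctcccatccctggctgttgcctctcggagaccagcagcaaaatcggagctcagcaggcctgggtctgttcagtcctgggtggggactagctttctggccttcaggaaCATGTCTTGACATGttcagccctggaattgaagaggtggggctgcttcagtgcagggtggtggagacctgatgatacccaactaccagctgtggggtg
The match describes the letters only and is not evidence of a bound site in these cells.

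Some other target genes of p53 were higher together with Cdkn1a in the long-term cultures. Of 19 such genes measured, NKT-like cells had 8 higher and 1 lower than naive cells, with a median log2 difference of 0.47 (-0.05 over all genes). Of all genes, 11% were called higher and 6.61% lower, so the 1 lower was near the share of all genes. Pmaip1, which encodes the death factor NOXA, was 12.0-fold higher (q = 1.97e-05), Zmat3, an RNA-binding regulator, was 6.88-fold higher (q = 2.11e-05) and Ccng1, cyclin G1, was 4.99-fold higher (q = 4.59e-06). Mdm2, the ubiquitin ligase that limits p53, was 3.67-fold higher in NKT-like cells (q = 6e-04). Sesn1, a stress-induced inhibitor of mTORC1, went the other way, at 0.362 of the naive level (q = 0.00254).

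In cultured CD4+ cells 7 of the 19 genes were higher than in naive CD8+ cells and none was lower (4 at an unadjusted p under 0.05). Of all genes, 11.6% were called higher and 5.58% lower. Pmaip1 (13.6-fold, q = 2.73e-05), Zmat3 (5.42-fold, q = 9.38e-05) and Ccng1 (4.02-fold, q = 2.46e-05) were again at the top. In activated cells, where 4.35% of all genes were called higher and 2.68% lower, none of the 19 was higher than in naive cells in the limma fit (4 at an unadjusted p under 0.05) and 3 were lower. These 3 were Trp53inp1, an autophagy and p53 cofactor, at 0.104 of the naive level (q = 0.00113), Sesn1 at 0.227 (q = 0.00276) and Bbc3, which encodes the death factor PUMA, at 0.312 (q = 0.00807). Set directly against activated cells, NKT-like cells had 10 of the 19 genes higher and 1 lower, where 4.27% of all genes were called (3.34% higher and 0.934% lower). Zmat3 was 7.16-fold (q = 7.49e-05), Trp53inp1 5.85-fold (q = 0.00202) and Pmaip1 5.54-fold higher (q = 0.000937), while Fas, the death receptor, was at 0.558 (q = 0.00751). Cultured CD4+ cells had 4 of the 19 genes higher than activated cells and none lower (1.8% of all genes called, 1.48% higher and 0.319% lower), led by Pmaip1 (6.27-fold, q = 0.0019), Zmat3 (5.64-fold, q = 0.00061) and Ccng1 (3.10-fold, q = 0.000681). Between NKT-like and cultured CD4+ cells only Sesn2 (2.00-fold higher, q = 0.00666) and Fas (0.535, q = 0.0036) passed, beside 1.21% of all genes higher and 1.8% lower.

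Leaving out activated replicate 2 reduced the count of 10 genes higher in NKT-like than in activated cells to 3, and leaving out naive replicate 2 reduced the count of 3 genes lower in activated than in naive cells to 0 (1 without naive replicate 1). Leaving out cultured CD4+ replicate 2 or 3 or naive replicate 2 reduced the count of 7 genes higher in cultured CD4+ cells to 4.

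**Figure D2:**
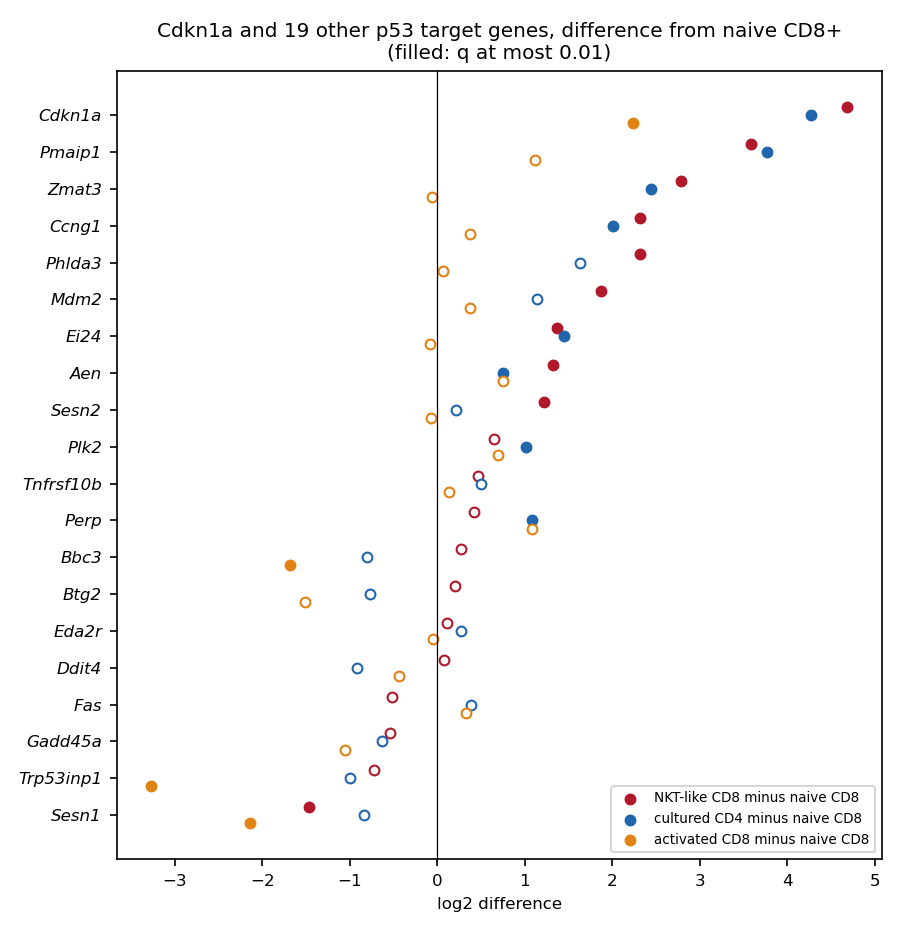
Log2 difference from naive CD8+ cells (horizontal axis) of Cdkn1a and 19 other p53 target genes (rows), in NKT-like, cultured CD4+ and activated CD8+ cells; filled points had q of at most 0.01. Cdkn1a is higher in all 3 groups, whereas Pmaip1, Zmat3 and Ccng1 passed in both long-term cultures and not in activated cells.

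Cdkn1b, which encodes p27, the Cip/Kip inhibitor of resting T cells, was lower in all stimulated groups than in naive cells. Its log2 signal was 6.58, 7.06, 7.17, 7.55 and 6.45 in NKT-like, 7.41, 7.14 and 7.29 in cultured CD4+, 7.21 and 6.77 in activated and 8.33 and 8.84 in naive cells. Both naive arrays lay above all 10 others, and the other 3 groups overlapped. NKT-like cells had 0.325 of the naive level (q = 0.000802), cultured CD4+ cells 0.405 (q = 0.0042) and activated cells 0.331 (q = 0.00634). No difference among those 3 groups passed (q of at least 0.487).

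The second probe set of Cdkn1b, 1419497_at, was dim on every array (4.45 to 5.49, below every array median) and did not pass in any comparison; its log2 difference from naive was 0.19 for NKT-like cells, -0.17 for cultured CD4+ cells and -0.34 for activated cells. Without naive replicate 2 none of the 3 calls of Cdkn1b remained (q = 0.0303 for NKT-like, 0.0701 for cultured CD4+ and 0.0762 for activated cells). The calls in cultured CD4+ and activated cells were also lost without naive replicate 1 (q = 0.0113 and 0.0158), cultured CD4+ replicate 2 (0.0205 and 0.0111) or cultured CD4+ replicate 3 (0.0161 and 0.0113), and that in activated cells without activated replicate 1 (0.0215) or 2 (0.0188). Both were also lost after median centring (0.011 and 0.0126) and with Benjamini-Hochberg adjustment (0.0102 and 0.0101), and that in activated cells in a fit of its pair alone (0.0344) and with array weights (0.0923).

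Cdkn2b and Cdkn2a were highest in NKT-like cells, and Cdkn2b passed there against each other group. They are neighbours on chromosome 4, with no protein-coding gene between them in the RefSeq annotation. Cdkn2b encodes the INK4 protein p15, and Cdkn2a encodes both the INK4 protein p16 and, from another first exon read in a different frame, the MDM2 inhibitor ARF.

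The log2 signal of Cdkn2b was 10.005, 10.47, 9.66, 8.96 and 10.35 in NKT-like, 7.34, 7.35 and 7.52 in cultured CD4+, 5.82 and 5.68 in activated and 5.54 and 6.60 in naive cells. All NKT-like arrays lay above all cultured CD4+ arrays, and these lay above all activated and naive arrays, which overlapped. Cdkn2b was higher in NKT-like cells than in each other group: 14.1-fold against naive (q = 2.72e-05), 17.6-fold against activated (q = 6.55e-05) and 5.60-fold against cultured CD4+ cells (q = 0.00102). It was the only one of the 10 genes called between NKT-like and cultured CD4+ cells, where 3.01% of all genes were called (1.21% higher and 1.8% lower), and all 3 calls held whichever single array was left out. Cultured CD4+ cells, in turn, had log2 differences of 1.34 ± 0.40 from naive cells (SE; q = 0.0151) and 1.65 ± 0.40 from activated cells (q = 0.0379), which did not pass. Their arrays did not overlap with either group, as held for 53.5% of all genes against naive and 24.1% against activated cells.

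Cdkn2a had a log2 signal of 9.33, 9.39, 8.40, 7.66 and 10.17 in NKT-like, 6.34, 7.21 and 7.01 in cultured CD4+, 5.23 and 5.68 in activated and 5.44 and 5.55 in naive cells. The groups stood in the same order as for Cdkn2b, and the activated and naive levels lay below every array median. NKT-like cells differed from naive cells by 3.49 ± 0.53 (SE; q = 0.000453) and from activated cells by 3.54 ± 0.53 (q = 0.00181). The difference from cultured CD4+ cells, 2.14 ± 0.46, did not pass (q = 0.0206), nor did that between cultured CD4+ and naive cells, 1.36 ± 0.58 (q = 0.047). The Cdkn2a call against naive cells was lost without naive replicate 2 (q = 0.012), and that against activated cells without activated replicate 1 (0.0111) or 2 (0.0192), in a fit of those groups alone (0.0156) or with array weights (0.0844).

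Within the NKT-like group the SD was 0.97 for Cdkn2a and 0.61 for Cdkn2b, the widest of that group among the brightest probe sets of the 10 genes. Replicate 4 was the lowest and replicate 3 the next lowest for both genes, and the highest was replicate 5 for Cdkn2a and replicate 2 for Cdkn2b. Only 1 probe set, 1450140_a_at, measured Cdkn2a, and which of its transcripts that probe set detects was not determined, so p16 and ARF cannot be told apart here.

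**Figure D3:**
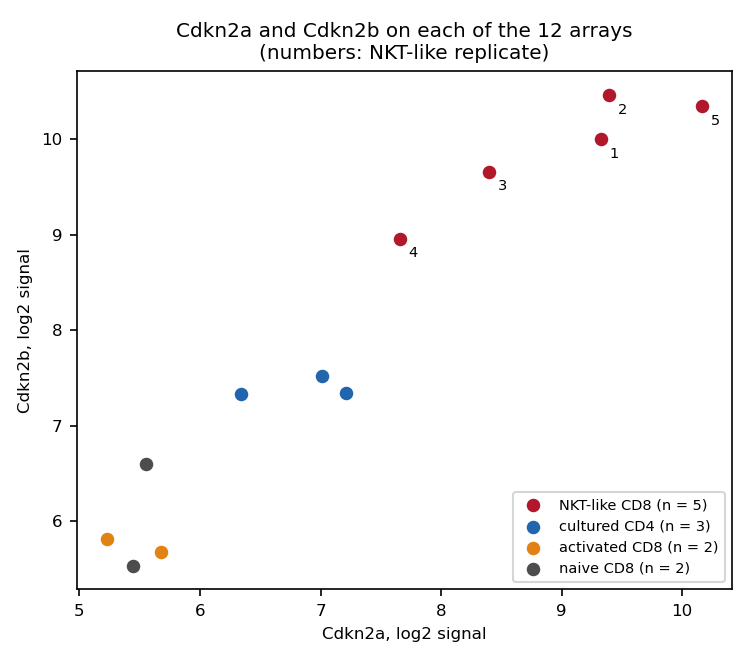
Log2 signal of Cdkn2a (horizontal axis) and Cdkn2b (vertical axis) on each of the 12 arrays, coloured by group, with the replicate number beside each NKT-like array. NKT-like arrays lie at the upper right with replicates 4 and 3 nearest to the cultured CD4+ arrays, and activated and naive arrays lie together at the lower left.

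The windows at the starts of the locus are shown because both genes were highest in NKT-like cells. They lie on the minus strand of GRCm38.p6, at chr4:89294570-89294869 for the upstream start of Cdkn2a, chr4:89282143-89282442 for its downstream start and chr4:89310983-89311282 for Cdkn2b. In the Cdkn2a windows capitals mark GGGCGG, the GC box bound by SP factors, searched on both strands and held by 35.66% of all windows. In the Cdkn2b window they mark TGACGTCA, the cAMP response element, held by 1.79% of all windows and by 1 of the 13 windows of these genes.
Cdkn2a, upstream start: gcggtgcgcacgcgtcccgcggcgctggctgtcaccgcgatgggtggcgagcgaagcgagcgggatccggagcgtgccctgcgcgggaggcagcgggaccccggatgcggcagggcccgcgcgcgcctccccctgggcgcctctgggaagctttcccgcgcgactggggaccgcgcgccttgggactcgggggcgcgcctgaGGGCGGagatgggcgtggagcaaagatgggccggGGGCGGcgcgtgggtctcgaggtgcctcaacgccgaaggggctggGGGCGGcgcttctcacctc
Cdkn2a, downstream start: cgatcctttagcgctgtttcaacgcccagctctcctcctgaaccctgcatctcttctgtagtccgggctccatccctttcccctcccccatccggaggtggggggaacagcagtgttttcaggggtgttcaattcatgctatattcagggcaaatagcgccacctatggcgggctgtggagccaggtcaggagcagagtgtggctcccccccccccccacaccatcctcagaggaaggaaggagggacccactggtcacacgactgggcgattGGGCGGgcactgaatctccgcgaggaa
Cdkn2b: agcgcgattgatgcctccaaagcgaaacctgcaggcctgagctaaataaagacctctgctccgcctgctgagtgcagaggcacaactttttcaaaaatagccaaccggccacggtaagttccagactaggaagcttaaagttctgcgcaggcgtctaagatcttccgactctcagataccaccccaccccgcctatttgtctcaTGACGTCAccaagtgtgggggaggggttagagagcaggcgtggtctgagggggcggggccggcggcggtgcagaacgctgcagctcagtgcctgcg
The upstream Cdkn2a window held 3 GC boxes and 77% G or C, the downstream window 1 GC box and 60.3%, and the Cdkn2b window 57.7% with its match starting 46 bases before the start. The Cdkn2b window also held 1 GC box, which is not marked.

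Polycomb proteins keep the Ink4 and Arf locus silent in dividing cells. Of 13 measured, 1 was higher and 1 lower in NKT-like cells against naive cells, shares near the 11% and 6.61% of all genes: Ezh2, the histone methyltransferase, was 1.99-fold higher (q = 0.00751), and Cbx7, a reader of its mark, was at 0.349 (q = 0.00067). In cultured CD4+ cells 4 were higher than in naive cells, among them Ezh2 (5.67-fold, q = 7.45e-05), Suz12 (2.89-fold, q = 0.00224) and Eed (1.83-fold, q = 0.00296), the 3 core subunits of one complex, and Cbx7 was at 0.464 (q = 0.00572). In activated cells only Ezh2 passed (5.23-fold, q = 0.000648). Of all genes, 11.6% were called higher and 5.58% lower in cultured CD4+ cells, and 4.35% and 2.68% in activated cells.

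NKT-like cells held less Ezh2 than the other stimulated groups. Its level was 0.350 of that in cultured CD4+ cells (q = 0.0023) and 0.380 of that in activated cells (q = 0.00553). Eed was also lower than in cultured CD4+ cells (0.572, q = 0.0083), Cbx2, another reader subunit, was lower than in activated cells (0.600, q = 0.00615), and Ezh1, the second methyltransferase of the family, was 2.58-fold higher than in activated cells (q = 0.00696). Of all genes, 1.8% were called lower against cultured CD4+ cells. Against activated cells 0.934% were called lower and 3.34% higher. These calls among stimulated groups were not refitted without single arrays. The call of Ezh2 in NKT-like against naive cells was lost when NKT-like replicate 1, 2 or 4, either of the naive arrays or cultured CD4+ replicate 2 was left out, and the count was 2 without either activated replicate. The count of 4 higher in cultured CD4+ cells came to 1 without naive replicate 2 or without cultured CD4+ replicate 2, and to 2 without naive replicate 1. In activated cells 3 passed without activated replicate 2.

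The remaining INK4 genes, Cdkn2c and Cdkn2d, were highest in cultured CD4+ cells. Cdkn2c, which encodes p18, had a log2 signal of 9.70, 9.67, 9.58, 9.89 and 9.53 in NKT-like, 12.20, 10.67 and 10.33 in cultured CD4+, 9.31 and 8.78 in activated and 8.78 and 9.40 in naive cells. The 3 cultured CD4+ arrays lay above all others but far apart, with replicate 1 above the other two. Cultured CD4+ cells were 3.92-fold above naive cells (q = 0.00365), a call lost without naive replicate 1 (q = 0.037) or 2 (q = 0.0196). It was also lost when those groups alone were fitted (q = 0.0197) and after quantile (0.019) or cyclic loess normalization (0.0224). The difference between NKT-like and cultured CD4+ cells, -1.39 ± 0.35 (SE), did not pass (q = 0.0411), nor did that between NKT-like and naive cells, 0.58 ± 0.40 (q = 0.126), nor that between cultured CD4+ and activated cells, 2.02 ± 0.43 (q = 0.0212).

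Cdkn2d, which encodes the INK4 protein p19, had a log2 signal of 9.99, 9.81, 10.82, 10.29 and 9.71 in NKT-like, 10.79, 10.82 and 10.67 in cultured CD4+, 9.69 and 9.15 in activated and 9.72 and 8.48 in naive cells. Cultured CD4+ arrays were close together (SD 0.08) and at the upper end of the NKT-like range, and naive replicate 1 reached the lowest NKT-like array. Cultured CD4+ cells stood 3.16-fold above naive cells (q = 0.00381). NKT-like cells differed from naive cells by 1.02 ± 0.34 (SE; q = 0.0203), which did not pass. The cultured CD4+ call was lost without naive replicate 2 (q = 0.0727) or without cultured CD4+ replicate 2 (0.0177) or 3 (0.0134), and also after quantile (0.0139) or cyclic loess normalization (0.0188).

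Ccnd2, the D-type cyclin induced first in stimulated T cells, was higher in both long-term cultures than in naive cells. Its log2 signal was 12.58, 12.45, 12.99, 12.56 and 12.39 in NKT-like, 12.85, 12.88 and 12.88 in cultured CD4+, 12.83 and 12.35 in activated and 12.08 and 10.75 in naive cells. Naive replicate 2 lay far below all other arrays, while replicate 1 was just below the lowest stimulated ones. The fold was 2.26 in NKT-like (q = 0.00585), 2.75 in cultured CD4+ (q = 0.00333) and 2.26 in activated cells (q = 0.0328), of which the last did not pass.

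Without naive replicate 2 neither call of Ccnd2 remained, and the log2 differences were 0.51 (q = 0.145) in NKT-like and 0.79 (q = 0.0416) in cultured CD4+ cells. The NKT-like call was also lost without NKT-like replicate 1, 3 or 4 (q = 0.0115, 0.0108 and 0.0119), and the cultured CD4+ call without cultured CD4+ replicate 2 (0.015) or 3 (0.0136). Fitting each pair alone (0.0111 and 0.014) or cyclic loess normalization (0.0505 and 0.034) ended both, quantile normalization (0.0141) or Benjamini-Hochberg adjustment (0.0143) that in NKT-like cells, and the most variable probe set (0.0105) that in cultured CD4+ cells. Over the 7 probe sets of Ccnd2 the log2 difference from naive cells was above 0 for all of them, from 0.32 to 1.79 in NKT-like and from 0.70 to 1.85 in cultured CD4+ cells. Not all of them passed. In NKT-like cells 1434745_at (q = 0.1), 1455956_x_at (0.0405) and 1416124_at (0.019) did not, nor did 1434745_at (0.0147) and 1430127_a_at (0.0105) in cultured CD4+ cells. Among the 3 stimulated groups no difference of the brightest probe set passed (q of at least 0.509).

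Ccnd3, the D-type cyclin that lymphocytes need for expansion in the thymus and germinal centre, gave different directions at its probe sets. At the brightest, 1415907_at, the log2 signal was 12.15, 11.38, 12.60, 11.95 and 11.91 in NKT-like, 11.42, 11.45 and 11.25 in cultured CD4+, 11.17 and 10.61 in activated and 11.19 and 11.13 in naive cells. NKT-like cells were highest there, at 1.79-fold the naive level (q = 0.0154) and 2.16-fold the activated level (q = 0.0176), neither of which passed.

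The dimmest probe set of Ccnd3, 1438805_at, was lower than in naive cells in every other group, by log2 differences of -1.43 ± 0.15 in NKT-like (SE; q = 4.85e-05), -1.32 ± 0.16 in cultured CD4+ (q = 0.000146) and -1.21 ± 0.18 in activated cells (q = 0.00145). Its level was 4.69 to 5.28 in the 10 stimulated arrays, below every array median, and 6.06 and 6.51 in naive cells. The remaining probe set, 1444323_at, stayed between 7.88 and 8.37 on all arrays and did not pass in any comparison.

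**Figure D4:**
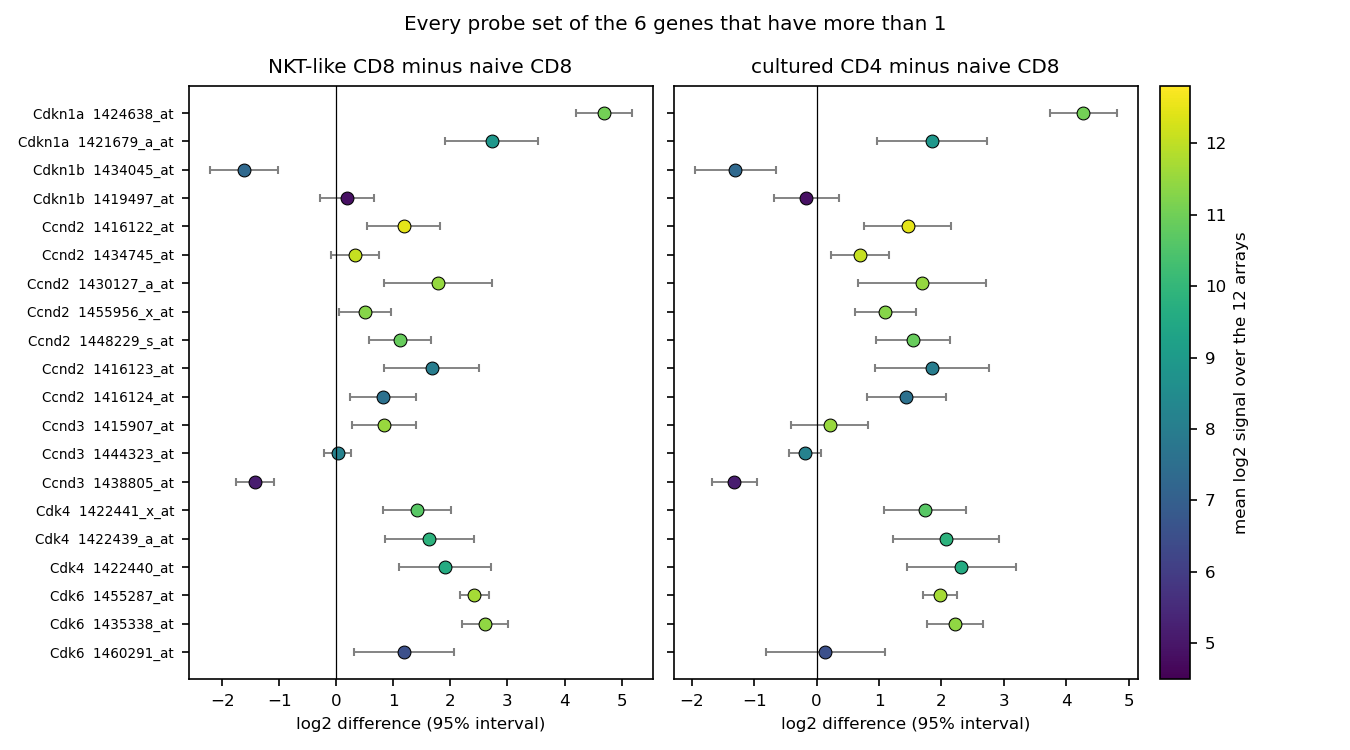
Log2 difference from naive CD8+ cells with its 95% interval (horizontal axis) for each of the 20 probe sets of the 6 genes that have more than 1, in NKT-like cells (left) and cultured CD4+ cells (right); colour gives the mean log2 signal over the 12 arrays. All probe sets of Cdkn1a, Ccnd2, Cdk4 and Cdk6 lie above 0, while those of Ccnd3 lie on both sides of 0, as do those of Cdkn1b in NKT-like cells.

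Cdk4, the kinase partner of D-type cyclins that growth signals raise, was higher in all stimulated groups than in naive cells. Its log2 signal was 10.08, 9.88, 9.82, 10.13 and 9.44 in NKT-like, 10.04, 10.45 and 10.46 in cultured CD4+, 10.92 and 10.18 in activated and 9.02 and 7.46 in naive cells. All stimulated arrays lay above both naive arrays, which were far apart. The fold over naive cells was 3.10 in NKT-like (q = 0.00331), 4.22 in cultured CD4+ (q = 0.00152) and 4.95 in activated cells (q = 0.00414). The order ran opposite to that of Cdk6, but no difference of Cdk4 among the stimulated groups passed (q of at least 0.195).

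Each of the 3 probe sets of Cdk4 passed in all 3 comparisons with naive cells. Without naive replicate 2 no call of the probe set read here, 1422439_a_at, remained, and the log2 difference was 0.85 (q = 0.089) in NKT-like, 1.30 (q = 0.0209) in cultured CD4+ and 1.53 (q = 0.0301) in activated cells. The call in activated cells was also lost without activated replicate 1 (q = 0.0397), in a fit of that pair alone (0.0744) and with array weights (0.0456).

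The promoter window of Cdk4, chr10:127063285-127063584 on the plus strand of GRCm38.p6, is shown because it held 4 copies of CACGTG, the E-box of MYC and related factors, in capitals. This string, read alike on both strands, was in 7.15% of all windows and in 3 of the 13 windows of these genes, the others being the 1 of Cdk6 and 1 of Cdkn2c.
Cdk4: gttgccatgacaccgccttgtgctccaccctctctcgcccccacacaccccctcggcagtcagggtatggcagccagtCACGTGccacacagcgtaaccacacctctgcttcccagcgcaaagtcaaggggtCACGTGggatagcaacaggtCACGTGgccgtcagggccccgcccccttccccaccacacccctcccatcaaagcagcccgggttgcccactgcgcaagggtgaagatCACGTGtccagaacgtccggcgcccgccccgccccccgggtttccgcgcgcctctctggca
TTTNNCGC, a core of E2F sites searched on both strands, was in 3 of the 13 windows (both of Cdkn2a and that of Cdk6) and in 5.17% of all windows, and GGGCGG was in 10 of the 13.

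Cdk6, the other partner of D-type cyclins, was graded over the groups with little spread. Its log2 signal was 12.35, 12.47, 12.32, 12.32 and 12.21 in NKT-like, 11.95, 11.87 and 11.87 in cultured CD4+, 11.72 and 11.32 in activated and 9.92 and 9.92 in naive cells. No group overlapped with another. The fold over naive cells was 5.34 in NKT-like (q = 1.41e-07), 3.94 in cultured CD4+ (q = 1.41e-06) and 3.03 in activated cells (q = 4.56e-05). These 3 calls held whichever single array was left out, and that in activated cells was lost in a fit of that pair alone (q = 0.0205).

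NKT-like cells also held 1.76-fold more Cdk6 than activated cells (q = 0.00132), a call lost without activated replicate 2 (q = 0.0158), in a fit of those groups alone (0.0119) and with array weights (0.0246). The steps between NKT-like and cultured CD4+ cells, 0.44 ± 0.10 (SE; q = 0.027), and between cultured CD4+ and activated cells, 0.38 ± 0.13 (q = 0.112), did not pass. A second probe set, 1435338_at, gave the same calls against naive and activated cells, with log2 differences from naive of 2.61 for NKT-like, 2.22 for cultured CD4+ and 1.67 for activated cells. The dim last one, 1460291_at, did not pass in any comparison, and its NKT-like arrays ranged from 6.22 to 7.82, against 5.88 and 6.14 in naive cells.

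**Figure D5:**
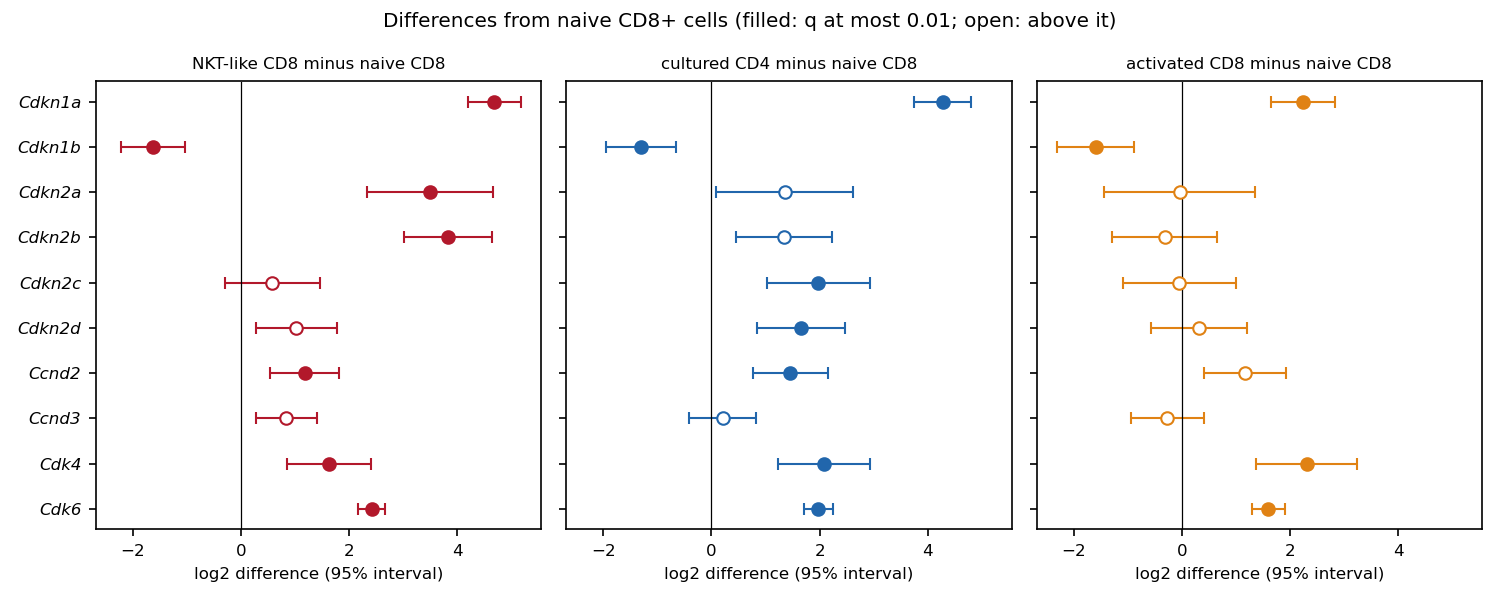
Log2 difference from naive CD8+ cells with its 95% interval (horizontal axis) for the 10 genes (rows) in NKT-like, cultured CD4+ and activated CD8+ cells; filled points had q of at most 0.01. Cdkn2a and Cdkn2b passed in NKT-like cells alone, Cdkn2c and Cdkn2d in cultured CD4+ cells alone, and Cdkn1a, Cdkn1b, Cdk4 and Cdk6 in all 3 panels; the intervals of Cdkn2a and Cdkn2b include 0 in activated cells.

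Of the 24 calls over the 6 comparisons, 10 held in every fit that left out 1 array: those of Cdkn1a against naive cells in each group and in NKT-like against activated cells, those of Cdkn2b in NKT-like cells against each other group, and those of Cdk6 against naive cells in each group. Against activated cells, NKT-like cells had 4 of the 10 genes higher (Cdkn1a, Cdkn2a, Cdkn2b and Cdk6) and none lower, beside 3.34% of all genes higher and 0.934% lower. Cultured CD4+ cells had only Cdkn1a higher and none lower, beside 1.48% and 0.319% of all genes. Without naive replicate 2 the calls against naive cells came to 3 of 10 for NKT-like, 2 for cultured CD4+ and 2 for activated cells. They came to 4 in cultured CD4+ cells without cultured CD4+ replicate 2 or 3 and to 2 in activated cells without activated replicate 1. Without activated replicate 2 the 4 calls between NKT-like and activated cells came to 2 and the 1 between cultured CD4+ and activated cells to 0, and that last count was 2 without cultured CD4+ replicate 1 or activated replicate 1. Between NKT-like and cultured CD4+ cells 2 passed without NKT-like replicate 4, activated replicate 1 or activated replicate 2.

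Several partners downstream of Cdk4 and Cdk6 were higher than in naive cells. Of 13 RB and E2F proteins, 5 were higher in NKT-like cells and none was lower, also at an unadjusted limma p under 0.05, led by E2f7 (3.23-fold, q = 0.00268), an E2F repressor, Tfdp1 (2.51-fold, q = 0.00053), the E2F dimer partner, and E2f8 (2.45-fold, q = 0.00213), another repressor. In cultured CD4+ cells 7 were higher and none was lower (1 at an unadjusted p under 0.05), with E2f7 at 6.55-fold (q = 0.000326), E2f8 at 4.28-fold (q = 0.00023) and E2f2, an activator, at 4.23-fold (q = 0.000239). In activated cells 3 were higher: E2f8 (3.30-fold, q = 0.00357), Tfdp1 (2.85-fold, q = 0.00229) and E2f3, an activator (2.55-fold, q = 0.00851). The NKT-like comparison called 11% of all genes higher and 6.61% lower. These shares were 11.6% and 5.58% for cultured CD4+ cells, and 4.35% and 2.68% for activated cells. The 13 had median log2 differences of 0.86 (NKT-like), 1.28 (cultured CD4+) and 0.39 (activated), against -0.05 over all genes each time.

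Tfdp2, a second dimer partner, was at 0.477 of the cultured CD4+ level in NKT-like cells (q = 0.00827). It was the only 1 of the 13 called between these cultures, where 1.21% of all genes were called higher and 1.8% lower. At an unadjusted limma p under 0.05, 7 of the 13 were lower and 1 higher in NKT-like cells, with a median log2 difference of -0.48. Rbl2, which encodes the retinoblastoma relative p130 of resting cells, was higher in NKT-like than in activated cells (12.2-fold, q = 0.000594) and in cultured CD4+ than in activated cells (7.21-fold, q = 0.00718), with an SD of 1.44 between the 2 activated arrays. Without naive replicate 1 none of the 5 calls in NKT-like cells and none of the 3 in activated cells remained, and without naive replicate 2 the counts were 1 and 1. The 3 in activated cells also came to 0 without activated replicate 1.

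The other 14 cyclins, kinases and activators of the G1 to S step had a median log2 difference from naive cells of 0.82 for NKT-like, 1.48 for cultured CD4+ and 1.44 for activated cells. The shares of all genes called higher in these comparisons were 11%, 11.6% and 4.35%. In cultured CD4+ cells 11 of 14 passed and none was lower, also at an unadjusted p under 0.05. The mitotic kinase gene Cdk1 was 5.63-fold (q = 0.000638), Ccne2, cyclin E2, 5.16-fold (q = 0.00645) and Cdk2, the kinase of cyclin E, 3.64-fold higher (q = 0.000335). NKT-like cells had 4 of 14 higher than naive cells: Mnat1 (2.25-fold, q = 0.00457) and Ccnh (1.70-fold, q = 0.00581), subunits of the kinase that activates the others, Cks1b (2.19-fold, q = 0.00329), a kinase cofactor, and Ccne1, cyclin E1 (2.02-fold, q = 0.00516). Activated cells had 5 of 14 higher, led by Cdk1 (4.75-fold, q = 0.0052), Cks1b (3.39-fold, q = 0.00257) and Cdk2 (3.17-fold, q = 0.00324).

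NKT-like cells had 0.447 of the cultured CD4+ level of Cdk2 (q = 0.00832), and none of the 14 passed between NKT-like and activated or between cultured CD4+ and activated cells. At an unadjusted limma p under 0.05, 7 of the 14 were lower and 0 higher in NKT-like cells against activated cells, and 1 was higher and 0 lower in cultured CD4+ cells against activated cells. Without either naive replicate the 11 calls in cultured CD4+ cells came to 4 and the 4 in NKT-like cells to 0. The cultured CD4+ calls were 5 without cultured CD4+ replicate 2 and 6 without replicate 3, and the NKT-like calls were 2 without NKT-like replicate 1 or 4. The 5 in activated cells came to 0 without naive replicate 1 or activated replicate 1 and to 1 without naive replicate 2, and they were 8 without activated replicate 2 or NKT-like replicate 3.

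Some genes that hold T cells in quiescence were lower alongside Cdkn1b. Of 14, NKT-like cells had 5 lower than naive cells, led by Klf2, a transcription factor of resting T cells (0.0444 of the naive level, q = 7.73e-05), Pik3ip1, an inhibitor of PI3 kinase (0.150, q = 0.000187), and Btg1, an antiproliferative factor (0.326, q = 0.00337). Tsc2, an inhibitor of mTORC1, was higher instead (2.18-fold, q = 0.00694). In cultured CD4+ cells 5 were lower, led by Klf2 (0.0350, q = 9.33e-05), Pik3ip1 (0.0497, q = 1.85e-05) and Foxp1, a transcription factor of resting T cells (0.289, q = 0.00212), and Slfn2, needed for T cell quiescence in mice, was higher (2.23-fold, q = 0.00966). In activated cells 3 were lower: Klf2 (0.0106, q = 8.53e-05), Pik3ip1 (0.0493, q = 0.000122) and Tob1, an antiproliferative factor (0.387, q = 0.00173). The shares of all genes called lower were 6.61% (NKT-like), 5.58% (cultured CD4+) and 2.68% (activated). The 1 higher gene per culture did not exceed the share of all genes called higher (11% for NKT-like, 11.6% for cultured CD4+). Without naive replicate 1 the counts in both cultures came to 2, and without naive replicate 2 to 3, as did that in cultured CD4+ cells without cultured CD4+ replicate 2 or 3.

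For the 3 genes with the widest range of group means, the genes with the most similar profile over the 12 arrays were looked up by Pearson's r. The arrays form 4 groups, so these values mainly describe shared group levels. Closest to Cdkn1a were Lgals1 (r = 0.988), Capg (0.985) and Lamc1 (0.976), which encode galectin-1, an actin-capping protein and a laminin chain. Closest to Cdkn2b were Cdkn2a (0.969), Ifitm1 (0.966), an interferon-inducible membrane protein, and Gzme (0.963), a granzyme. Closest to Cdkn2a were Cdkn2b (0.969), Gzme (0.959) and Pcx, pyruvate carboxylase (0.959). Gzme averaged 13.14 in NKT-like, 8.83 in cultured CD4+, 6.06 in activated and 5.76 in naive cells, at a probe set whose probes may also match other genes.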

How the data were processed

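RNA of 12 spleen T cell samples was measured on Affymetrix mouse arrays. The authors normalized the scanner signals by RMA and deposited log2 values per probe set, and these were used as deposited. The sources used here leave out whether the 12 arrays were normalized in 1 run.

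Of 45101 probe sets, 64 controls were left out and 45037 tested. The array annotation gave 34945 of them 1 gene symbol, 932 several and 9160 none. Each of the 18193 genes was read at its brightest probe set on average, one ending in _s_at or _x_at only where no other existed. limma 3.58.1 in R 4.3.3 fitted the 4 group means to all arrays and tested 6 pairwise contrasts (degrees of freedom: 8 residual, 3.03 prior). For each contrast all probe sets entered the Storey q-values, and q of at most 0.01 was called, as in the study's methods. In simulated data, the fit recovered 50.7% of 2-fold and 97% of 4-fold changes for NKT-like against naive cells, and 34.3% and 83.6% for activated against naive cells. There 67 of 45037 probe sets changed at each of these sizes. In the data 16.4% and 5.7% of probe sets were called, and a q limit admits other p-values when more change. The simulated rates are therefore not the sensitivity of the tests reported here.

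Samples were grouped by their titles. The study describes separate cultures, but the labels do not say whether replicates came from separate animals. The p-values set each group difference against the spread between these samples, pooled over the 4 groups. The 10 genes, the 5 gene lists and the tests were chosen with earlier results of these data known. All probe sets of the 10 genes were described, with up to 3 called genes of each list per comparison and any that went the other way, and the 3 most similar genes for each of the 3 widest-ranging genes. Of the 5 lists, 19 of 20 p53 targets and 13 of 14 Polycomb genes were measured, and every gene of the other lists. Btg2 is in both the p53 and the quiescence list. Promoter sequences are those of RefSeq (GRCm38.p6), and 1 gene, Ccnd2, had no window. Alternatives were a fit of each pair alone, q of 0.05, Benjamini-Hochberg adjustment, array weights, a trended robust prior, removal of dim probe sets, quantile and cyclic loess normalization, median centring, other choices of probe set, a replicate block and leaving out each array.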

Additional observations from a re-analysis of the deposited data

Results flagged for a closer look

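Of 24 probe sets of the 10 genes checked for a stray array among the 5 NKT-like samples, 1 stood out: at the dimmer Cdkn1a probe set 1421679_a_at, replicate 3 had a log2 signal of 10.90, and the other 4 ranged from 9.39 to 9.83. The gap to the nearest array was 0.712 of the whole range, just above Dixon's limit of 0.71, and chance flags about 1 in 20 such groups. At the brighter Cdkn1a probe set, 1424638_at, replicate 3 was also the highest, at 12.63, next to 12.50 in replicate 4.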

How the results depend on the processing

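Of the 24 calls on the 10 genes, none changed direction under any alternative, and 10 held in every fit without 1 array. Leaving out each array in turn gave 3 to 8 called genes in NKT-like and 2 to 8 in cultured CD4+ against naive cells, 2 to 4 in activated against naive, 1 to 2 in NKT-like against cultured CD4+, and 2 to 5 in NKT-like and 0 to 2 in cultured CD4+ against activated cells. Fitting each pair alone gave 1 call in activated against naive and 2 in NKT-like against activated cells. At q of 0.05 there were 4 between NKT-like and cultured CD4+ and 3 between cultured CD4+ and activated cells. Array weights gave 1, 3, 2 and 0 calls for activated against naive cells, NKT-like against cultured CD4+ cells, and NKT-like and cultured CD4+ against activated cells. Quantile normalization gave 2 between NKT-like and cultured CD4+ cells, and cyclic loess 2 there and 4 in cultured CD4+ against naive cells. Causes were not tested.

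Whether the replicate numbers pair samples across groups is not known. Same-numbered samples deviated from their group means with correlations from -0.50 to 0.28, and differently numbered ones from -0.38 to 0.50. In a group of 2 arrays the deviations mirror each other, so these values cannot decide it. Of 3 cultured CD4+ samples, 0 deviated most like the NKT-like sample of its own number. With a replicate block there were 2 calls in cultured CD4+ and 2 in activated against naive cells and 0 in cultured CD4+ against activated cells.

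At Ccnd3, taking the probe set with the largest variance turned the difference from naive cells to -1.43 in NKT-like (q = 4.85e-05) and -1.32 in cultured CD4+ cells (q = 0.000146), and left NKT-like cells at -0.11 from cultured CD4+ and -0.22 from activated cells and cultured CD4+ cells at -0.11 from activated ones. The other turned signs belong to differences that did not pass, in log2 units. Over the mean of all probe sets, Ccnd3 was at -0.19 in NKT-like and -0.43 in cultured CD4+ against naive cells, Cdkn1b at 0.0204 in NKT-like against cultured CD4+ and 0.25 against activated cells, and Ccnd2 at -0.0209 in NKT-like against activated cells. Ccnd2 had 0.10 in NKT-like against cultured CD4+ cells at its most variable probe set. Ccnd3 in cultured CD4+ against naive cells had -0.22 after quantile and -0.34 after cyclic loess normalization. Cdkn2a in activated against naive cells had 0.0508, 0.0579 and 0.0419 after quantile normalization, cyclic loess and median centring, and Cdkn2c 0.0386 after centring. Ccnd2 in NKT-like against activated cells had -0.0088, -0.0860 and -0.0242 with array weights, quantile and cyclic loess normalization, and Cdkn1b 0.0030 after centring.

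Without single arrays the ranges that crossed 0 were -0.24 to 0.19 for Cdkn1b and -0.23 to 0.24 for Ccnd2 in NKT-like against activated cells, -0.60 to 0.14 for Cdk4 in cultured CD4+ against activated cells, and, in activated against naive cells, -0.27 to 0.18 for Cdkn2a, -0.85 to 0.21 for Cdkn2b, -0.36 to 0.26 for Cdkn2c, -0.30 to 0.94 for Cdkn2d and -0.55 to 0.0096 for Ccnd3.

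The counts over gene lists given here were refitted without each array, an alternative chosen after seeing the data. The other list counts were not refitted in this way. In NKT-like, cultured CD4+ and activated against naive cells the higher counts ranged over 0 to 6, 5 to 8 and 0 to 4 for RB and E2F proteins, 0 to 5, 4 to 12 and 0 to 8 for the other G1 to S genes, and 0 to 2, 1 to 4 and 1 to 3 for Polycomb proteins. The lower counts of quiescence factors ranged over 2 to 5, 2 to 7 and 2 to 4. For p53 targets 6 to 8 were higher in NKT-like and 4 to 8 in cultured CD4+ cells, 0 to 4 were lower in activated cells, and 3 to 10 were higher in NKT-like than in activated cells. With 2 naive and 2 activated arrays, 1 array can decide a call.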
